A study of Mus musculus with 8 samples.

Results

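Control microglia 2 days after peripheral nerve injury were compared with control microglia of naive animals, gene by gene, in 2 single-cell RNA-Seq libraries. Both libraries came from C57BL/6 mice of the genotype Cx3cr1-yfp-creER/+, in which a YFP reporter and a tamoxifen-inducible Cre are driven from an allele of Cx3cr1. Every animal compared thus had a single intact copy of this receptor gene. The day 2 animals had bilateral sciatic nerve transection 2 days earlier and the naive animals had none. YFP (+) cells were sorted from the lumbar spinal cords of 3 animals pooled per library. By the methods of the study, cells for sequencing were taken up in serum-free medium with the cytokines TGF-beta2 and IL34 and with cholesterol. The series also holds control libraries from days 1 and 3 and 4 libraries labelled as conditional knockouts of Tnfaip3, the gene of the protein A20. They are named here only where their values bear on the comparison. Tamoxifen treatment of the control animals is not given in the labels of these libraries. Cells entered when their barcode had at least 1000 UMIs (unique molecular identifiers, each standing for one captured RNA molecule), at least 500 genes and at most 10% of UMIs from mitochondrially encoded genes. This kept all 3585 barcodes of the day 2 library and 568 of 609 barcodes of the naive library, which makes 4153 of the 14626 cells kept in the 8 libraries.

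Microglia are the macrophages that live in brain and spinal cord tissue, where they renew themselves by division and not from blood monocytes. After a peripheral nerve is cut, microglia around the spinal terminals of the injured sensory neurons and around the injured motor neurons react within days, change shape, release chemokines and multiply. A dividing cell first makes deoxynucleotides and copies its DNA in S phase under the control of E2F transcription factors, and then builds the spindle, condenses its chromosomes and separates them in G2 and M phase under the kinase CDK1 and its cyclins.

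The UMIs of each gene were summed over the kept cells of a library and scaled to CPM, the UMIs of a gene per 1000000 UMIs of its library. The sums held 15817426 UMIs on day 2 and 1620481 in naive, so that 1 UMI was worth 0.0632 CPM on day 2 and 0.617 CPM in naive. The naive library therefore limits the precision of every low gene. Each condition had 1 library, so that condition, library and pool of animals cannot be told apart. No test was run, and a gene is called higher or lower by size alone. Ranges in parentheses are 95% intervals that cover counting error only. The median depth of kept cells was 2780 UMIs in naive and 3911 on day 2, and the median mitochondrial share was 0.904% and 1.52%. In all, 5 barcodes occurred in both libraries. All 10 microglia markers examined were detected, with P2ry12 in 100% of naive and 99.9% of day 2 cells, while all 5 neutrophil, 4 erythrocyte and 3 choroid plexus markers had no UMI in either library.

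The naive library, and the day 1 and day 2 libraries as a pair, stood apart from the other libraries of the series at many genes. Of the 363 genes called lower below, 244 (67.2%) had a naive level above all the other 7 libraries, against 21.4% of all 8254 genes examined. Likewise 205 (56.5%) had day 1 and day 2 both below the other 6, against 24.5% of all genes. Of the 460 genes called higher, 295 (64.1%) had a naive level below all the other 7 libraries, against 14.4% of all genes. Among the same 460, 119 (25.87%) had day 1 and day 2 both above the other 6, against 12.02% of all genes. These were 110 of the 343 higher genes outside the cell cycle, histone and tubulin lists used below (32.07%). On those lists they were 9 of 117 (7.69%). The part of this pair pattern in the higher calls was not tested. The calls rest on these same naive and day 2 levels, so the selection itself raises the shares of the called genes. Only the shares of all genes are free of it. Some genes that share sequence with a neighbour or copy also had day 1 and day 2 apart from the other libraries. The UMIs of mt-Atp8 were 0.172 of those of the overlapping mt-Atp6 in naive, 0.0347 on day 1 and 0.0286 on day 2, and 0.161 to 0.224 in the other 5 libraries. Those of Nme2 were 0.871 of those of Nme1 in naive, 0.0667 on day 1 and 0.0733 on day 2, and 0.708 to 1.23 elsewhere. Psme2b with its copy Psme2 showed it too, at 0.123 on day 1, 0.12 on day 2 and 0.337 to 0.525 in the other libraries. The ratio of Rnaset2b to its copy Rnaset2a did not, at 0.672 on day 1 and 0.698 on day 2, within the 0.624 to 0.808 of the other libraries. The summed level of this pair did stand apart, at 547 CPM on day 1 and 525 CPM on day 2, against 1132 to 1553 CPM in the other libraries. Genes with a pseudogene annotation or only a Gm number were 72 of the 363 lower genes (19.8%) and 0 of the 460 higher genes, against 1.68% of all genes. These pairs and classes were chosen after their values were seen, and their part in the lower calls was not tested.

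Most of the largest differences between day 2 and naive were in genes of cell division. Of 8254 genes that averaged 10 CPM or more over both libraries, 460 were at least 2-fold higher on day 2 (5.57%) and 363 at least 2-fold lower (4.4%). Both counts are relative to the median gene, whose own log2 ratio of day 2 to naive was -0.13. The middle quartiles of all genes ran from -0.37 to 0.37 on this centred log2 scale, which is used for every ratio below. Of the 160 genes on the cell cycle, histone and tubulin lists that reached 10 CPM, 117 were at least 2-fold higher and 0 lower, and the remaining 343 higher genes were on none of these lists. Since the filter took the mean of both libraries, genes near 0 in naive entered only when high on day 2. For such genes the call of higher follows from the filter. Among the core G2/M genes defined below, 15 reached 10 CPM and 0 had 10 CPM in naive itself. Without centring the split was 348 higher and 538 lower, and with TMM scaling it was 541 higher and 277 lower. The median ratio also moved with the level, from -0.18 among genes of 10 to 20 CPM to 0.35 among genes of at least 500 CPM. For every list below, the 5.57% of all genes called higher and the 4.4% called lower are the background of its counts.

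**Figure D1:**
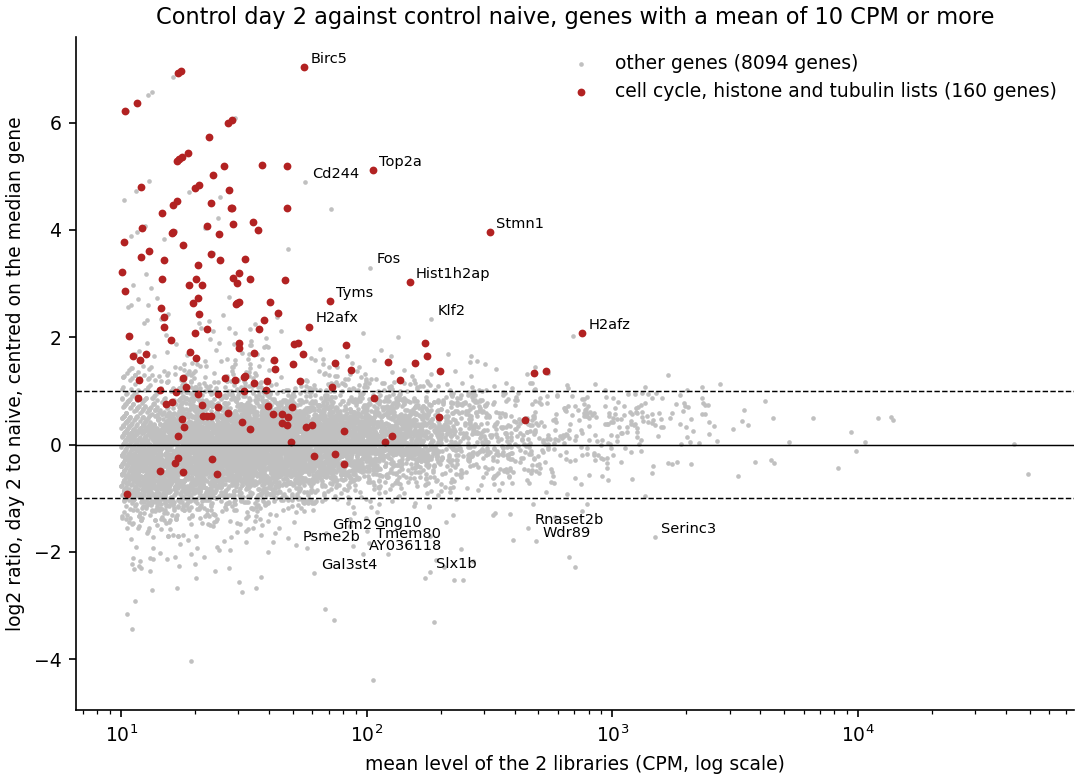
Log2 ratio of day 2 to naive (vertical axis, centred on the median gene, 0.5 UMIs added to each sum) against the mean level of the 2 libraries (horizontal axis, CPM on a log scale) for the 8254 genes. Red points are the 160 genes of the cell cycle, histone and tubulin lists, dashed lines mark 2-fold, and the labelled genes are the 10 highest and 10 lowest that averaged 50 CPM or more once mitochondrial, ribosomal, Gm and Rik genes were left out. The red points spread upwards to about 7 and none lies below the lower dashed line.

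Cells with UMIs of several division genes at once were nearly absent in naive and frequent on day 2. A G2/M class was defined by UMIs of at least 3 of 18 core genes (Top2a, Mki67, Cdk1, Ccnb1 and others), and an S class by at least 3 of 12 core genes (Mcm2, Pcna, Tyms and others) with fewer than 3 core G2/M genes. Counted on all UMIs, 1 of 568 naive cells was in the G2/M class (0.176%, 0.00446 to 0.977), against 1113 of 3585 cells on day 2 (31.05%, 29.5 to 32.6). The S class held 4 naive cells (0.704%, 0.192 to 1.79) and 392 cells on day 2 (10.9%, 9.93 to 11.997). Because day 2 cells were deeper, the shares were also counted after thinning each cell to 2000 UMIs, which left out 66 naive and 105 day 2 cells. Thinned, the G2/M class was 0.189% of naive and 14.1% of day 2 cells, a difference of 13.9 percentage points (12.5 to 15.1), and the S class was 0.189% and 6.33%, a difference of 6.14 points (4.95 to 7.01). On all UMIs the S class was as frequent on day 1 (10.9%) as on day 2. By the thinned count, day 1 had 0.0992% in the G2/M class and 2.26% in the S class, and day 3 had 8.71% and 3.12%. Cells of the G2/M class on day 2 had a median of 5488 UMIs and day 2 cells outside both classes 3422 UMIs, but since the class asks for UMIs of several genes, deeper cells enter it more easily. A cell type that lacks these genes, from which free RNA could be measured, was not found in either library, and the naive share is the only background for these values.

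**Figure D2:**
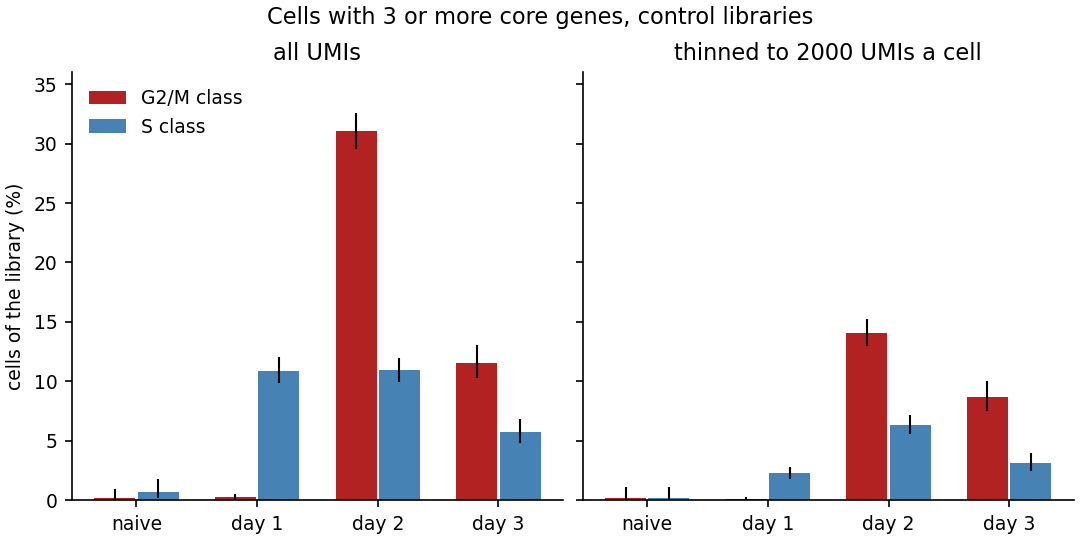
Share of cells (percent of the library) in the G2/M class (red) and the S class (blue) in the 4 control libraries, counted on all UMIs (left) and after thinning to 2000 UMIs a cell (right), with 95% binomial intervals as bars. The day 2 G2/M share is 31.05% on all UMIs and 14.1% after thinning, above naive by far more than the counting interval on both scales, and the S share is at most 10.9%.

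Replication genes were higher on day 2 for the helicase, for the polymerases and for fork proteins. By role, 11 of 12 helicase and loading genes, 9 of 16 polymerase and clamp genes and 6 of 8 fork genes that reached 10 CPM were at least 2-fold higher. Of 45 genes of DNA replication, 36 reached 10 CPM, and of these 26 were at least 2-fold higher and 0 lower (median 1.63), against 5.57% and 4.4% of all genes. Of the 45, 23 had at least 10 CPM in the naive library itself, and genes of the 36 below that level entered through their day 2 level. Summed over all 45 genes, the level was 662 CPM in naive and 990.00, 1743 and 1072 CPM on days 1, 2 and 3. Mcm2 and Mcm5, subunits of the replicative helicase, had the highest ratios of the list. Mcm5 had 3.7 CPM in naive and 24.2, 42.7 and 20.6 CPM on days 1, 2 and 3, a ratio of 3.54 (2.53 to 5.11). Its UMIs were found in 0.681% of naive and 7.49% of day 2 cells after thinning. Mcm2 had 2.47 CPM in naive and 24.8, 33.3 and 15.5 CPM on days 1, 2 and 3, a ratio of 3.71 (2.52 to 5.76). For both helicase genes the day 1 level was already above naive and the day 2 level was the highest of the 4 control libraries. The other helicase subunits were higher to unequal degrees, with ratios of 2.64 for Mcm6, 1.7 for Mcm7, 1.68 for Mcm4 and 1.18 for Mcm3. Cdt1, which loads the helicase on origins, had a ratio of 1.73 (1.04 to 2.63). Gmnn, whose protein geminin prevents a second round of loading, had 7.41 CPM in naive and 15.6, 59.8 and 25.7 CPM on days 1, 2 and 3, a ratio of 3.09 (2.33 to 4.1). Among the polymerases and their clamp, Prim1, the primase subunit, had a ratio of 3.09 (2.13 to 4.51). The clamp Pcna had 1.9 (1.46 to 2.43) and the clamp loader subunit Rfc4 had 3.02 (2.24 to 4.09). Pola2, a subunit of polymerase alpha, was the only one of the 36 below the median gene, with 21.6 CPM in naive and 14.1 CPM on day 2 and a ratio of -0.5 (-1.0 to 0.07). Of the genes that seal and protect the fork, the checkpoint mediator Clspn had a ratio of 3.43 (2.23 to 5.48) and the DNA ligase Lig1 2.65 (2.04 to 3.43).

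Enzymes that supply deoxynucleotides differed in the same direction. Of 15 genes, 13 reached 10 CPM, and 10 of these were at least 2-fold higher and 0 lower (median 1.54). Only 8 of the 15 had 10 CPM in naive itself, and genes of the 13 below that level entered through their day 2 level. Rrm2, the regulatory subunit of ribonucleotide reductase whose protein is made for S phase, had 3.09 CPM in naive and 1.85, 53.9 and 21.3 CPM on days 1, 2 and 3, a ratio of 4.12 (3.03 to 5.88). Its catalytic partner Rrm1 had a smaller ratio of 2.65 (1.79 to 3.86). Tk1, the cytosolic thymidine kinase, had 3.7 CPM in naive and 2.92, 65.3 and 21.7 CPM on days 1, 2 and 3, a ratio of 4.16 (3.14 to 5.72). Tyms, which makes thymidylate, had 20.4 CPM in naive and 24.1, 121 and 42.7 CPM on days 1, 2 and 3, a ratio of 2.68 (2.2 to 3.24). It was present in 3.66% of thinned naive and 18% of thinned day 2 cells. In contrast to Mcm2 and Mcm5, Rrm2 and Tk1 had day 1 levels below their naive levels by CPM, and the naive intervals held the day 1 values. Dut, which removes dUTP, had a ratio of 3.45. Ctps, which makes CTP for RNA as well, had 0.33 (-0.22 to 0.98).

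The mitotic regulators held the highest ratio of any gene of at least 50 CPM, and many of them had only 1 to 7 UMIs in the naive library. Of 32 genes, 21 reached 10 CPM, of which 18 were at least 2-fold higher and 0 lower (median 3.95). Only 5 of the 32 had 10 CPM in naive itself. Their summed level over all 32 genes was 276 CPM in naive and 376, 1300.4 and 771 CPM on days 1, 2 and 3. Birc5 (ENSMUSG00000017716, chr11:117849251-117855743 on GRCm38), whose protein survivin belongs to the chromosomal passenger complex, was the highest gene of at least 50 CPM. Birc5 had 1 UMI in naive and 1746 on day 2, a ratio of 7.03 (5.13 to 12.92). Its level was 0.617 CPM in naive and 1.35, 110.4 and 55.7 CPM on days 1, 2 and 3. After thinning, 0.139% of naive and 15.9% of day 2 cells had a UMI of it, against 0.176% and 29.7% without thinning. Cdk1, the kinase that starts mitosis, had 4.32 CPM in naive and 4.27, 46.1 and 23.1 CPM on days 1, 2 and 3, a ratio of 3.45 (2.5 to 4.87). Its cyclins were close to absent in naive, where Ccnb1, Ccnb2 and Ccna2 had 1 UMI each. Ccnb2 reached 36.7 CPM (33.7 to 39.8) on day 2, a ratio of 5.44 (3.54 to 11.33). Ccna2 reached 34.8 CPM (32 to 37.9), a ratio of 5.37 (3.46 to 11.26). Ccnb1 reached 33 CPM (30.2 to 36), a ratio of 5.29 (3.39 to 11.18). Day 1 levels of these 3 cyclins, 0.640 to 1.56 CPM, were inside the naive interval of 0.0156 to 3.44 CPM, and day 3 lay between 14.3 and 38.8 CPM. Of the kinases, Aurkb had a ratio of 3.09 (1.99 to 4.85) and Pbk, with 1 naive UMI, 5.99 (4.09 to 11.88). Ube2c and Cdc20, which serve the ubiquitin ligase of anaphase, had ratios of 6.04 (4.15 to 11.93) and 3.95 (2.61 to 6.45), and the CDK subunit Cks1b had 4.41 (3.47 to 5.83). The checkpoint kinase Bub1b, which averaged less than 10 CPM, had no naive UMI and was at least 5.94-fold higher on day 2 when 3 counts are set as the naive limit. Pttg1 and Espl1, securin and the protease separase that it holds back, did not share the difference. Pttg1 had 67.9 CPM in naive and 53.9 CPM on day 2, a ratio of -0.21 (-0.49 to 0.1). Espl1 had 19.1 CPM in naive and 14 CPM on day 2, a ratio of -0.34 (-0.86 to 0.28), and both intervals included 0.

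Structural genes of mitosis differed as widely as its kinases. Of 47 genes of the spindle, the kinetochore and cytokinesis, 27 reached 10 CPM, and 26 of these were at least 2-fold higher and 0 lower. Their median was 4.31, or 3.96 when genes without a naive UMI are set at their lower bound. Only 4 of the 47 had 10 CPM in naive, and 10 of the 47 had no naive UMI. The level summed over all 47 genes was 143 CPM in naive and 138, 1207 and 1065 CPM on days 1, 2 and 3. Nusap1, a spindle-associated protein, had 1 naive UMI and 44.9 CPM on day 2, a ratio of 5.73 (3.83 to 11.62). Prc1, which bundles the central spindle, had 1.23 CPM in naive and 0.569, 51.2 and 38.3 CPM on days 1, 2 and 3, a ratio of 5.18 (3.65 to 8.55). Racgap1, a cytokinesis regulator, had a ratio of 5.32 (3.42 to 11.21). At the kinetochore, Cenpa, the centromeric histone, had 1.85 CPM in naive and 1.35, 53.2 and 52.8 CPM on days 1, 2 and 3, a ratio of 4.75 (3.42 to 7.25). Spc25, an outer kinetochore subunit, had a ratio of 4.83 (3.29 to 8.2). Cenpm and Sgol1, a centromere protein and the guardian of centromeric cohesion, had no naive UMI and were at least 18.4-fold and 12.5-fold higher on day 2. Cenpe, Cenpf and the motor Kif11 differed from the genes above in their later course, with day 3 levels of 57, 58.7 and 22.8 CPM against 32.6, 54.1 and 14 CPM on day 2. Ckap5, a microtubule polymerase that many cell types use, had the smallest ratio of the 27, 0.53 (0.01 to 1.13).

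The upstream sequences of some of these genes are shown because genes of the late cell cycle are known to carry CCAAT boxes, bound by NF-Y, and CHR elements (TTTGAA), and genes of replication to carry E2F sites. Promoters from RefSeq (GRCm38.p6) were matched by symbol for 6392 of the 8254 genes, and the 250 bases before the start site were searched on both strands for CCAAT, for TTTGAA and for TTTGGCGC or TTTCCCGC. CCAAT occurred in 65.1% of the 63 mitosis genes with a promoter, in 64.7% of the 34 replication genes and in 40.2% of all genes. TTTGAA occurred in 31.8% of the mitosis genes, 14.7% of the replication genes and 12.5% of all genes, and both motifs together in 25.4%, 8.82% and 4.71%. The E2F motifs occurred in 4.76% of the mitosis genes, 17.6% of the replication genes and 3.18% of all genes. Of the genes at least 2-fold higher on day 2 that were on no cycle list, 258 had a promoter, of which 46.5% held CCAAT, 12.8% TTTGAA and 5.81% an E2F motif. These are matches of letters and not measured binding sites, and no test was run on them. The sequences below run 5′ to 3′ towards the start site, with each match or its reverse complement in capitals. Those of Top2a, Cdk1 and Ccnb2 hold CCAAT with TTTGAA, that of Mcm5 holds CCAAT with an E2F motif, and that of Birc5, the highest gene, holds none of the searched motifs. The promoters of Mcm2 and Rrm2, not shown, held CCAAT and no E2F motif. TTTGAA occurred in the promoter of Mcm2 as well and not in that of Rrm2. That of Ccnb1 held CCAAT without TTTGAA, and those of Mki67 and Cdc20 held both.
Top2a (chr11:99024190-99024439, minus strand): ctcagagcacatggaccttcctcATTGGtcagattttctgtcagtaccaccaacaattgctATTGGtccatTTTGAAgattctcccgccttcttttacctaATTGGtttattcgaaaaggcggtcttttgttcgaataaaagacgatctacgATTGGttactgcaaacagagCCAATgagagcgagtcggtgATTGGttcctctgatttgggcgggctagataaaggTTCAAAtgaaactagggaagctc
Cdk1 (chr10:69352913-69353162, minus strand): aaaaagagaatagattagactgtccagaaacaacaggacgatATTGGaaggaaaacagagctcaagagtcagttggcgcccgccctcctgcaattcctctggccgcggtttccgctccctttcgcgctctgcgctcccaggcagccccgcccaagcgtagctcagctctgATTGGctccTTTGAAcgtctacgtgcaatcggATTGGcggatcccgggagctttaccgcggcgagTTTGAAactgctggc
Ccnb2 (chr9:70421555-70421804, minus strand): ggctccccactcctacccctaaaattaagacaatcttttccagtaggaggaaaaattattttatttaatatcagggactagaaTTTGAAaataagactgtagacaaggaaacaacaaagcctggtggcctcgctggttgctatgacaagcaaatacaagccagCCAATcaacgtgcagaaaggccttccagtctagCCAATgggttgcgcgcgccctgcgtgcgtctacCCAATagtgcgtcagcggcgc
Mcm5 (chr8:75109259-75109508, plus strand): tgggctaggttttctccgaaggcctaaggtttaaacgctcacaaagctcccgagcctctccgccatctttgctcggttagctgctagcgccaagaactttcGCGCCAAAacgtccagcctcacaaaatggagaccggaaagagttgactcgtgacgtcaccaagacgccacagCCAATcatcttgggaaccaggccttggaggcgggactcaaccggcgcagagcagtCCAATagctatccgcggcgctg
Birc5 (chr11:117848987-117849236, plus strand): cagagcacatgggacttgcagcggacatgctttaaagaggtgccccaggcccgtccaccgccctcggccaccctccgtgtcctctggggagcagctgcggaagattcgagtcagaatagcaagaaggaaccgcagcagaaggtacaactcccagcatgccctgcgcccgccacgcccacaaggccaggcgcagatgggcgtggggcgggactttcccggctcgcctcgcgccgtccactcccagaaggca

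Chromatin genes of dividing cells followed, with condensin, histone variants and the machinery that copies DNA methylation. Of 31 genes, 26 reached 10 CPM, and 22 of these were at least 2-fold higher and 0 lower (median 1.99). Of the 31, 17 had 10 CPM in naive itself, and genes of the 26 below that level entered through their day 2 level. Top2a (ENSMUSG00000020914, chr11:98992943-99024189), the topoisomerase that untangles sister chromatids, had 10 naive UMIs and 3261 day 2 UMIs. Top2a had 6.17 CPM in naive and 6.33, 206 and 156 CPM on days 1, 2 and 3, a ratio of 5.12 (4.31 to 6.25). A UMI of it was seen in 0.487% of thinned naive and 22.7% of thinned day 2 cells. Mki67, which coats mitotic chromosomes and is the usual proliferation marker, had 2.47 CPM in naive and 1.64, 92.2 and 154 CPM on days 1, 2 and 3, a ratio of 5.18 (3.99 to 7.23). Unlike Birc5 and Top2a, Mki67 had its highest control level on day 3. Hells and Uhrf1, which are needed to keep DNA methylated through replication, had ratios of 4.49 (3.16 to 6.99) and 3.61 (2.27 to 6.11). The histone chaperone Asf1b had 4.0 (3.05 to 5.42). The condensin subunits Ncapd2, Smc2 and Smc4 had ratios of 3.35, 3.07 and 2.15, while Ncaph had 0.49 (-0.08 to 1.16). H2afz, a histone variant used throughout the cycle, had 309 CPM in naive and 382, 1197 and 712 CPM on days 1, 2 and 3, a ratio of 2.08 (1.96 to 2.22). It was found in 43.7% of thinned naive and 83.9% of thinned day 2 cells. H2afx, the variant marked at DNA breaks, had a ratio of 2.2 (1.74 to 2.74). Hmgb1, an abundant chromatin protein of most cells, had the smallest ratio of the list, 0.45 (0.34 to 0.58).

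Stmn1, whose protein stathmin takes up free tubulin, was found in a majority of day 2 cells. Stmn1 had 41.3 CPM in naive and 67.9, 592 and 354 CPM on days 1, 2 and 3, a ratio of 3.96 (3.62 to 4.34). The share of cells with a UMI was 6.63% in naive and 59.6% on day 2 after thinning, and 9.15% and 78.5% without it. Of the 13 tubulin and stathmin genes, 10 reached 10 CPM, of which 6 were at least 2-fold higher and 0 lower (median 1.19), and 2, Stmn1 and Tubb4b, outside both classes. In naive itself 9 of the 13 had 10 CPM. Tubb4b had a ratio of 1.85 (1.5 to 2.25), Tuba1b of 1.37 (1.24 to 1.5) and Tubb5 of 1.33 (1.2 to 1.47), and tubulin genes are close in sequence. Replication-dependent histones, many of whose transcripts lack a poly(A) tail and are captured poorly by this assay, were mostly too low to compare. Only 13 of 68 genes reached 10 CPM, and 4 of these were at least 2-fold higher and 0 lower (median 0.52). In naive itself 10 of the 68 had 10 CPM. Hist1h2ap had 35.2 CPM in naive and 45.5, 264 and 135 CPM on days 1, 2 and 3, a ratio of 3.03 (2.66 to 3.44). The linker histone Hist1h1b had no naive UMI and was at least 11.2-fold higher on day 2, with 66.3 CPM on day 3.

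Among genes that carry a cell from G1 into S phase, the E-type cyclins were much higher on day 2, and Ccnd1 and Ccnd3, the D-type cyclins that reached 10 CPM, were near the median gene. Of 17 genes, 14 reached 10 CPM, with 5 at least 2-fold higher and 0 lower (median 0.43). Of the 17, 9 had 10 CPM in naive itself, and Ccne1, Ccne2, E2f1 and E2f8 were among those that entered through their day 2 level. Outside both classes 10 still averaged 10 CPM, and 1 of these, E2f1, was at least 2-fold higher. Ccne1, an E-type cyclin, had no naive UMI and 3.06, 35 and 10.2 CPM on days 1, 2 and 3, at least 18.9-fold higher on day 2. Ccne2 had 2.47 CPM in naive and 3.98, 54 and 22.4 CPM on days 1, 2 and 3, a ratio of 4.41 (3.22 to 6.46). E2f1, an activating E2F, had 3.09 CPM in naive and 12.9, 46.8 and 15.5 CPM on days 1, 2 and 3, a ratio of 3.92 (2.83 to 5.68). E2f8, a repressing one, had a ratio of 3.22 (1.88 to 5.73), and E2f3 and E2f4 had -0.28 and 0.33. Ccnd1, the cyclin that answers growth factor signals in G1, had 125 CPM in naive and 177, 129 and 163 CPM on days 1, 2 and 3, a ratio of 0.17 (-0.04 to 0.39). Ccnd3 had 77.1 CPM in naive and 63.4, 84.1 and 213 CPM on days 1, 2 and 3, a ratio of 0.25 (-0.01 to 0.53). Their partners Cdk4 and Cdk6 had 0.86 (0.61 to 1.13) and -0.18 (-0.44 to 0.09), and Rb1, the brake they inactivate, had -0.56 (-0.98 to -0.08). Among cell cycle brakes and p53 targets, 14 of 21 genes reached 10 CPM, with 3 at least 2-fold higher and 1 lower (median 0.17), and 2 higher and 0 lower outside both classes. The inhibitors of the INK4 family Cdkn2d and Cdkn2c had ratios of 1.85 (1.31 to 2.52) and 1.76 (1.14 to 2.54). Gadd45g, a stress gene, had 51.8 CPM in naive and 202, 112 and 74.5 CPM on days 1, 2 and 3, a ratio of 1.23 (0.92 to 1.57). Cdkn1a, the p53 target p21, had 164 CPM in naive and 293, 283 and 244 CPM on days 1, 2 and 3, a ratio of 0.92 (0.74 to 1.11). Cdkn1c, p57, was lower with 18.5 CPM in naive and 8.16 CPM on day 2, a ratio of -1.07 (-1.63 to -0.43). Ccng2, a cyclin of resting cells, had 183 CPM in naive and 92.8, 86.6 and 126 CPM on days 1, 2 and 3, a ratio of -0.95 (-1.13 to -0.77).

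Myc (ENSMUSG00000022346, chr15:61985391-61990374), a transcription factor of growth and the study's central gene, was less than 2-fold apart between day 2 and naive. Myc had 31.5 CPM in naive and 96.5, 43.4 and 46.4 CPM on days 1, 2 and 3, and the ratio of day 2 to naive was 0.58 (0.18 to 1.03). After thinning, 5.83% of naive and 7.91% of day 2 cells had a Myc UMI. The day 2 value was close to that of day 3 and below that of day 1, while naive was the lowest of the 4. Of 11 genes of the Myc and Max network, 9 reached 10 CPM, and 0 were at least 2-fold higher and 1 lower. Their median was -0.16 and lay above 0 under 2 of 10 alternative settings. Mycl, a relative of Myc, was the lower one, with 18.5 CPM in naive and 6.83, 4.55 and 35.4 CPM on days 1, 2 and 3 and a ratio of -1.91 (-2.53 to -1.23). Mnt, a repressor of the same target sites, had -0.99 (-1.39 to -0.54).

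To describe genes beyond cell division, the libraries were compared again over cells outside both the G2/M and the S class, 2080 on day 2 and 563 in naive. These cells still held division transcripts, since only 256 day 2 cells and 387 naive cells had no UMI of any core gene. In this comparison 232 of 8170 genes were at least 2-fold higher (2.84%) and 309 lower (3.78%). Of the 117 higher genes on the cycle lists, 78 still averaged 10 CPM in these cells, and 55 of these were at least 2-fold higher there. Of the 343 higher genes on none of these lists, 306 still averaged 10 CPM, and 170 of these were at least 2-fold higher. Of the 363 lower genes, 362 still averaged 10 CPM, and 273 of these were at least 2-fold lower. The 343 also include genes of replication, repair and mitosis that the lists did not hold, such as Ung, Dtl, Cdca2 and Esco2. These were chosen after their values were seen, and how many there are was not counted. Replication genes numbered 12 at least 2-fold higher and 1 lower among 31, Pola2 (-1.27) being the lower one, with a median of 0.75. The ratio of Hist1h2ap went from 3.03 to 1.08, while that of Stmn1 was 3.43 and that of H2afz 1.54. Within the day 2 library, the 1505 cells of both classes had 173 genes at least 2-fold higher than the 2080 others (2.18% of 7940, core genes left out) and 1 lower (0.0126%).

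**Figure D3:**
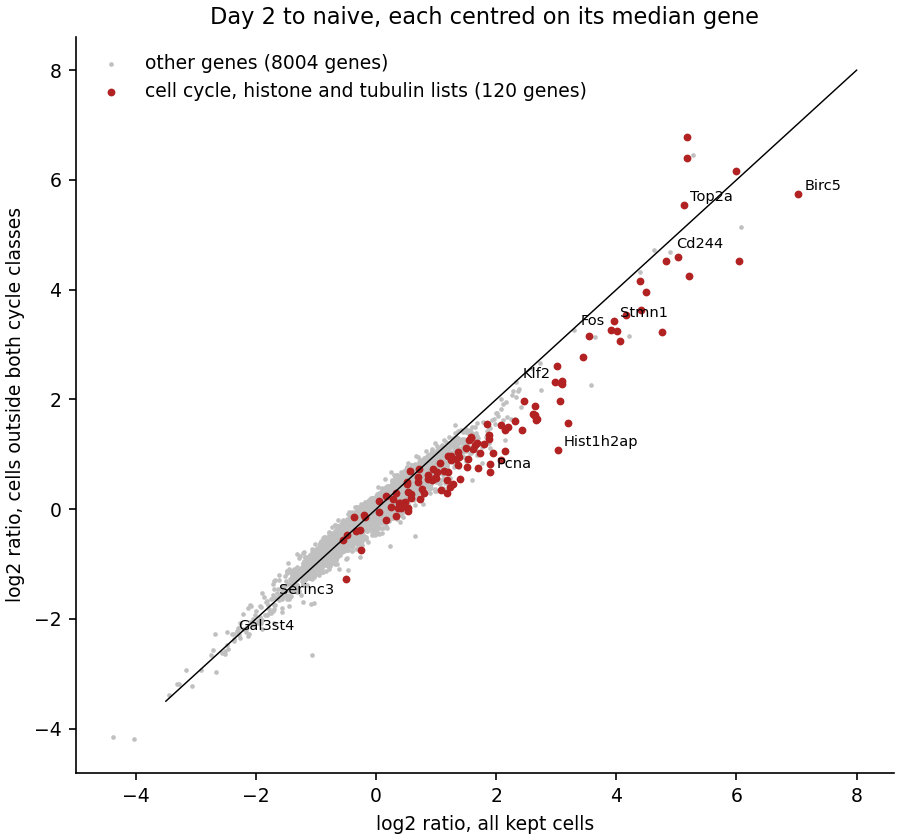
Log2 ratio of day 2 to naive in cells outside both classes (vertical axis) against the ratio in all kept cells (horizontal axis), each centred on its own median gene with 0.5 UMIs added, for genes that averaged 10 CPM or more in both sets of cells. Red points are cycle, histone and tubulin list genes, and the line marks equal ratios. Fos and Klf2 lie on the line, Cd244 just under it, and Hist1h2ap well below it.

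Cd244 (ENSMUSG00000004709, chr1:171559193-171609746), a receptor of the SLAM family best known from natural killer cells, was the highest gene of at least 50 CPM outside the division lists. Cd244 had 3.7 CPM in naive and 51.8, 109 and 94.6 CPM on days 1, 2 and 3, so that all 3 injured libraries were above naive. The ratio was 4.89 (3.88 to 6.46), and the naive knockout library, with 33.4 CPM, was also above the control naive library. UMIs of it were in 0.557% of thinned naive and 17.8% of thinned day 2 cells, and in 1.06% and 33.2% without thinning. The ratio was 4.69 in cells outside both classes, and within day 2 its level was 0.33 higher on the log2 scale in cells of the classes. Cd244 lies opposite to Ly9, another SLAM gene, with overlapping ends in the annotation, and Ly9 had a ratio of -0.59 (-1.14 to 0.04). No other member of the 12 SLAM genes was 2-fold apart among the 7 at 10 CPM. Cd244 passed the filter of 10 CPM through its day 2 level. Cd48, the ligand of Cd244, had 189 CPM in naive and 151 CPM on day 2, a ratio of -0.2 (-0.37 to -0.02). Markers of lymphocytes, which also carry Cd244, were nearly absent, with Cd3e and Ms4a1 at 0 UMIs in both libraries. Nkg7, a marker of cytotoxic lymphocytes, had 0 UMIs in naive and 48 on day 2, in 0.697% of cells.

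Immediate-early genes, which are induced within minutes by many stimuli and by tissue dissociation, were in part higher on day 2 than in naive, and their levels on day 1 were the highest. Of 31 genes, 21 reached 10 CPM, of which 8 were at least 2-fold higher and 0 lower (median 0.42). In naive itself 20 of the 31 had 10 CPM. The summed level of all 31 was 3466 CPM in naive and 32794, 4169 and 6397 CPM on days 1, 2 and 3. Fos, a subunit of the AP-1 factor, had 20.4 CPM in naive and 4105, 186 and 301 CPM on days 1, 2 and 3, a ratio of 3.3 (2.83 to 3.86). It was seen in 3.57% of thinned naive and 24.8% of thinned day 2 cells. Klf2, a zinc finger factor that restrains inflammatory genes, had 64.8 CPM in naive and 3245, 300.4 and 455 CPM on days 1, 2 and 3, a ratio of 2.34 (2.06 to 2.64). Egr1 had 11.7 CPM in naive and 848, 46.7 and 79.7 CPM on days 1, 2 and 3, a ratio of 2.09 (1.47 to 2.86). For these genes the naive library was the lowest control library and day 1 the highest. The 4 knockout libraries ranged from 13.2 to 508 CPM for Fos, the higher end being the naive one. Fosb, Socs3, Ier2, Dusp1 and Jun had ratios of 2.74, 1.45, 1.33, 1.17 and 1.02. Junb had 0.27, Zfp36 -0.4 and Atf3, an injury-response factor, -0.33 (-0.81 to 0.23). Outside both classes 7 of 21 were at least 2-fold higher, with 3.27 for Fos and 2.31 for Klf2, and within day 2 both differed by 0.01 between cells in and outside the classes. The part of dissociation in these levels was not tested.

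Chaperones were higher too, 5 of 9 genes at 10 CPM being at least 2-fold higher and 0 lower (median 1.06, 14 genes listed). Outside both classes 3 of 9 were, Hsp90aa1 (1.13), Hsp90ab1 (1.25) and Hspa8 (1.01), with a median of 0.84. Hsp90aa1 had 85.2 CPM in naive and 376, 226 and 161 CPM on days 1, 2 and 3, a ratio of 1.53 (1.29 to 1.79). Hsp90ab1, its constitutive counterpart, had 277 CPM in naive and 1077, 692 and 497 CPM on days 1, 2 and 3, a ratio of 1.45 (1.31 to 1.59). The folding chaperones Hspa8 and Hspd1 had ratios of 1.13 and 1.11, and Hspa5 of the endoplasmic reticulum 1.06. Hspa1a, the most inducible member, had no naive UMI, 155 CPM on day 1, 5.56 on day 2 and 0.549 on day 3. For all 5 of the higher chaperones day 1 was the highest control library.

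Among secreted signals, the monocyte chemokines Ccl2 and Ccl12 were at least 2-fold higher on day 2, as was the cytokine Tnf. Of 28 chemokine and cytokine genes, 18 reached 10 CPM, of which 3 were at least 2-fold higher and 2 lower (median -0.23). Of the 28, 17 had 10 CPM in naive itself, and Ccl2 entered through its day 2 level. Ccl2 had 7.41 CPM in naive and 502, 88.6 and 263 CPM on days 1, 2 and 3, a ratio of 3.65 (2.9 to 4.67). It was seen in 1.21% of thinned naive and 10.5% of thinned day 2 cells. Ccl12, a close relative and also a ligand of Ccr2, had 294 CPM in naive and 3406, 1088 and 1991 CPM on days 1, 2 and 3, a ratio of 2.01 (1.88 to 2.15). Its UMIs were in 25.2% of thinned naive and 73.8% of thinned day 2 cells. Both were highest on day 1, and on day 3 they lay between days 1 and 2. Their ratios outside both classes were 3.13 and 1.74, and within day 2 their levels were 0.84 and 0.57 higher on the log2 scale in cells of the classes. Tnf had 16.7 CPM in naive and 158, 37.4 and 34.9 CPM on days 1, 2 and 3, a ratio of 1.27 (0.74 to 1.91), with 0.95 outside both classes. The macrophage chemokine Ccl3, known to be induced by dissociation, had 87 CPM in naive and 892, 57 and 65.2 CPM on days 1, 2 and 3, a ratio of -0.48 (-0.74 to -0.21). Ccl4, its relative, had 140.1 CPM in naive and 779, 97.4 and 116 CPM on days 1, 2 and 3, a ratio of -0.4 (-0.6 to -0.19). On day 2 both were thus below the naive level, unlike Ccl2 and Ccl12. Il1b had too few naive UMIs to place it, with a ratio of 0.56 (-0.6 to 2.36). Il6 was lower, with 29 CPM in naive and 9.61 CPM on day 2, a ratio of -1.47 (-1.94 to -0.96) and -0.98 outside both classes. The atypical receptor Ccrl2 was lower as well, with 30.9 CPM in naive and 10.9 CPM on day 2, a ratio of -1.38 (-1.83 to -0.88).

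Tnfaip3 (ENSMUSG00000019850, chr10:19000910-19015657), which encodes A20, an enzyme that ends NF-kB signalling, was lower on day 2 than in every other control library. Tnfaip3 had 24.1 CPM in naive and 25.3, 6.83 and 20.3 CPM on days 1, 2 and 3, a ratio of -1.7 (-2.23 to -1.12), from 39 naive and 108 day 2 UMIs. Thinned cells with a UMI of it were 5.03% in naive and 1.47% on day 2, and the ratio outside both classes was -1.76. The other NF-kB genes were near the median gene, with 0 of the 20 at 10 CPM at least 2-fold higher and only Tnfaip3 lower. Nfkbia, the inhibitor IkB alpha, had 205 CPM in naive and 523, 193 and 374 CPM on days 1, 2 and 3, a ratio of 0.04 (-0.12 to 0.21). The target Sod2, a mitochondrial superoxide dismutase, had 0.8 (0.42 to 1.23). Socs3, the feedback inhibitor of cytokine receptors, had 43.2 CPM in naive and 599, 109 and 149 CPM on days 1, 2 and 3, a ratio of 1.45 (1.12 to 1.83). Pim1, a kinase induced by cytokine receptors, had 9.26 CPM in naive and 46.9, 37.9 and 48.9 CPM on days 1, 2 and 3, a ratio of 2.12 (1.43 to 3.01). Among 17 genes of CSF receptor signalling, with 14 at 10 CPM, Pim1 and Socs3 were the 2 higher ones. Of the 17, 13 had 10 CPM in naive itself, and Pim1 entered through its day 2 level. Pik3cg, a phosphoinositide kinase, was the lower one at -1.05 (-1.3 to -0.77), with -0.92 outside both classes. The receptor Csf1r itself had 2451 CPM in naive and 2356, 1737 and 1758 CPM on days 1, 2 and 3, a ratio of -0.37 (-0.41 to -0.32).

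**Figure D4:**
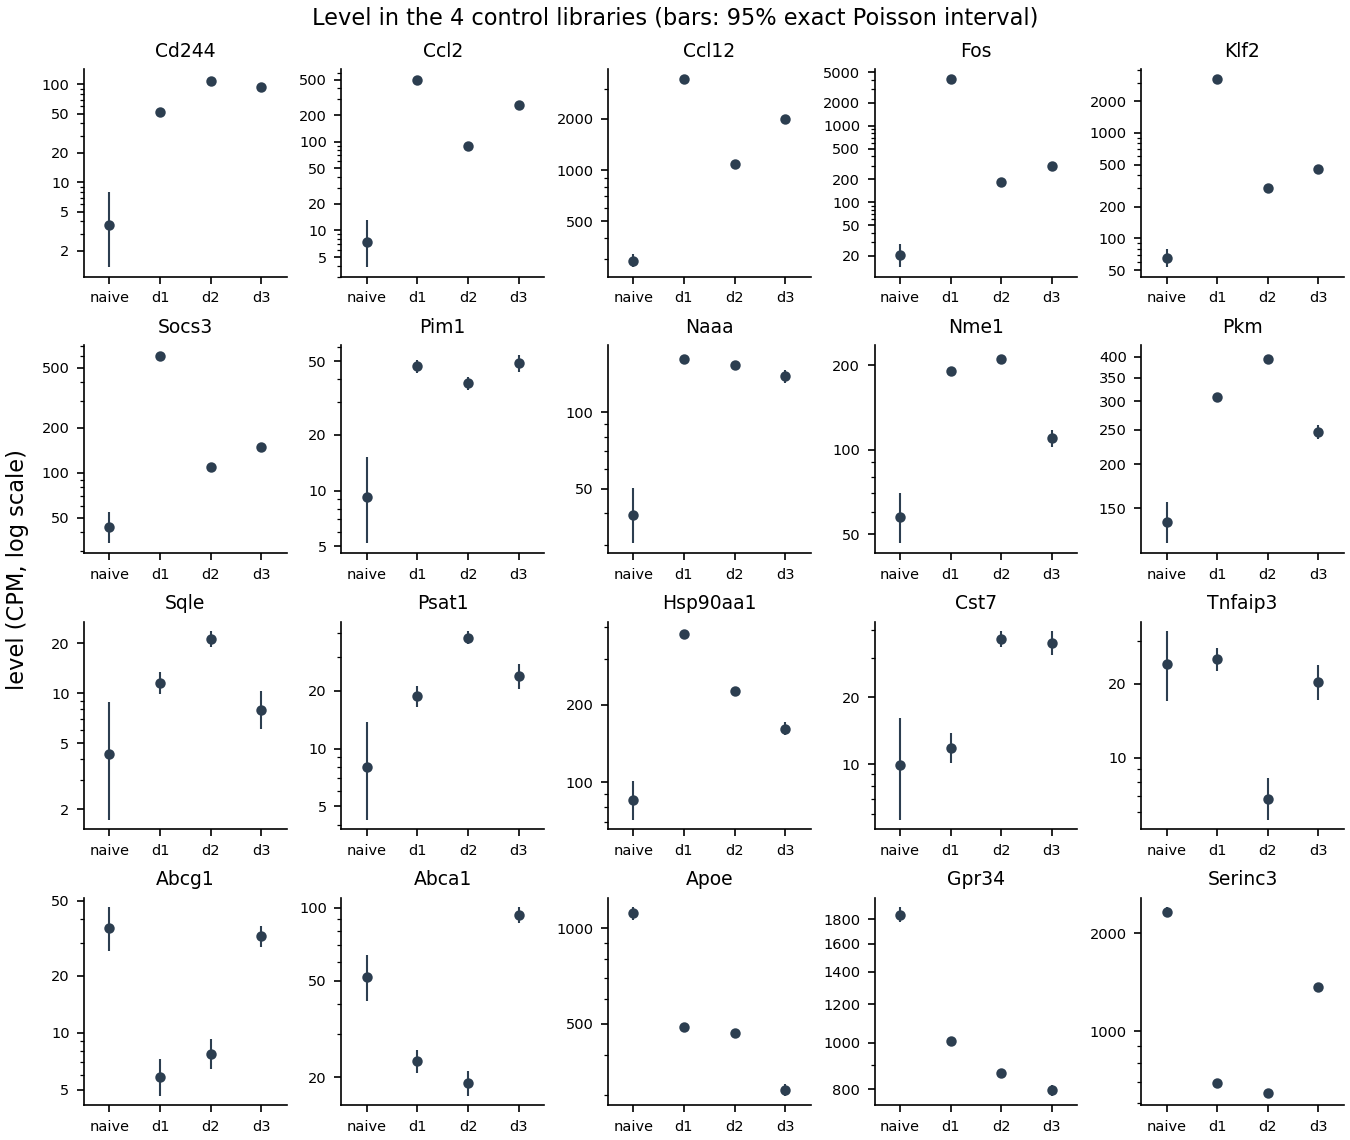
Level of 20 named genes in the 4 control libraries (CPM on a log scale that differs between panels), with 95% exact Poisson intervals as bars that are smaller than the point where not seen. Cd244 is lowest in naive and highest on day 2, Fos, Klf2, Ccl2 and Ccl12 peak on day 1, Tnfaip3 is lowest on day 2, and Abcg1 and Serinc3 are low on days 1 and 2.

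Genes of growth and biosynthesis were higher by smaller factors. Of 31 genes of ribosome biogenesis and growth, 30 reached 10 CPM, with 27 above the median gene, 8 at least 2-fold higher and 1 lower (median 0.66). Outside both classes 5 were at least 2-fold higher and 1 lower, with a median of 0.52. In cells with no core gene UMI, a set chosen after seeing the data, the median was 0.295. Srm, the spermidine synthase, had 30.9 CPM in naive and 135, 98.1 and 36.8 CPM on days 1, 2 and 3, a ratio of 1.78 (1.39 to 2.23). Ran, the nuclear transport GTPase, had 169 CPM in naive and 346, 437 and 213 CPM on days 1, 2 and 3, a ratio of 1.5 (1.33 to 1.68). The translation factor Eif5a had 1.32 (1.19 to 1.46). Nme1, a nucleoside diphosphate kinase, had 57.4 CPM in naive and 189.8, 210.3 and 109.8 CPM on days 1, 2 and 3, a ratio of 2.0 (1.71 to 2.32). Its adjacent copy Nme2 was the lower member at -1.57 (-1.93 to -1.19). The UMIs of both together gave 1.2, so that neither value stands alone. The nucleolar proteins Ncl, Nop56 and Nop58 had 0.79, 0.82 and 0.88. Serine and one-carbon enzymes, which feed nucleotide synthesis, had 4 of 9 genes at 10 CPM at least 2-fold higher and 0 lower (median 0.88, 15 listed). Of the 15, 7 had 10 CPM in naive itself, and Psat1 entered through its day 2 level. Psat1, an enzyme of serine synthesis, had 8.02 CPM in naive and 18.7, 37.7 and 23.7 CPM on days 1, 2 and 3, a ratio of 2.31 (1.58 to 3.28). Shmt2, which passes the carbon of serine to folate in mitochondria, had 15.4 CPM in naive and 43.3, 46.8 and 17.2 CPM on days 1, 2 and 3, a ratio of 1.7 (1.16 to 2.37). Psph, Mthfd2 and Phgdh had ratios of 1.33 (0.63 to 2.22), 1.23 (0.92 to 1.56) and 0.88 (0.65 to 1.12). Cytosolic Mthfd1 had -0.44 (-0.96 to 0.16).

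In energy metabolism, genes of oxidative phosphorylation were mostly above the median gene and glycolysis genes were divided. Of 16 glycolysis genes, 14 reached 10 CPM, with 9 above the median gene and 5 below it, and the 3 at least 2-fold higher were Pkm, Gapdh and Ldha. The median of the 14, 0.35, lay within the middle quartiles of all genes and was 0.18 when genes were centred within bins of like level, an alternative chosen after seeing the data. Pkm, pyruvate kinase, had 137 CPM in naive and 308, 396 and 246 CPM on days 1, 2 and 3, a ratio of 1.66 (1.47 to 1.86). Gapdh had 1.33 (1.21 to 1.46) and Ldha, which makes lactate, 1.02 (0.84 to 1.22). The glucose transporter Slc2a1 had -0.35 (-0.77 to 0.12) and hexokinase Hk2 -0.05 (-0.17 to 0.07). Of 83 nuclear genes of oxidative phosphorylation, 79 were above the median gene, 13 at least 2-fold higher and 0 lower (median 0.66). This median was 0.53 within bins, and 6 genes were at least 2-fold higher outside both classes. Proteasome subunits were above the median gene in 31 of 31 (median 0.59, 1 at least 2-fold higher). Mitochondrial ribosomal proteins were above it in 68 of 75 (median 0.48) and cytosolic ribosomal proteins in 75 of 78 (median 0.57, or 0.33 within bins). Of 24 splicing genes, 4 were at least 2-fold higher and 0 lower (median 0.48), but outside both classes 0 were, with a median of 0.28. They were the small ribonucleoprotein genes Snrpd1 (1.23), Snrpd2 (1.03) and Snrpa1 (1.01) and the RNA-binding Ybx1 (1.14).

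Cholesterol genes split between synthesis and efflux. Of 18 genes of cholesterol synthesis and uptake, 13 reached 10 CPM, with 3 at least 2-fold higher and 0 lower (median 0.51). Their median was 0.15 in cells with no core gene UMI, a set chosen after seeing the data. Of the 18, 11 had 10 CPM in naive itself, and Sqle entered through its day 2 level. Sqle, the squalene epoxidase, had 4.32 CPM in naive and 11.5, 21.2 and 7.96 CPM on days 1, 2 and 3, a ratio of 2.33 (1.37 to 3.75). Sc5d had a ratio of 1.47 (0.86 to 2.23) and Fdps, which makes farnesyl diphosphate, 1.38 (0.93 to 1.91). Hmgcs1, an early enzyme of the pathway, had 0.15 (-0.33 to 0.72). Of 11 genes of efflux and lipid handling, 10 reached 10 CPM, with 0 at least 2-fold higher and 3 lower (median -0.60). Abcg1 and Abca1, the transporters that pass cholesterol to lipoproteins and are targets of the LXR receptors, were 2 of these. Abcg1 had 35.8 CPM in naive and 5.83, 7.71 and 32.4 CPM on days 1, 2 and 3, a ratio of -2.09 (-2.55 to -1.61). Abca1 had 51.8 CPM in naive and 23.3, 18.8 and 93.5 CPM on days 1, 2 and 3, a ratio of -1.34 (-1.68 to -0.96). Both were low on days 1 and 2, and on day 3 Abcg1 was within its naive interval and Abca1 above it. Days 1 and 2 were also the libraries that stood apart as a pair at many genes. The part of that pattern, or of cholesterol in the medium, in these ratios was not tested. Apoe, the main lipoprotein of the brain, was the third, with 1113 CPM in naive and 489.8, 469.7 and 310.01 CPM on days 1, 2 and 3 and a ratio of -1.12 (-1.19 to -1.04). Its level was below naive on each injury day. In cells outside both classes the ratios were -1.76 for Abcg1, -1.09 for Abca1 and -0.98 for Apoe. The LXR genes Nr1h3 and Nr1h2 themselves had 0.21 (-1.95 to 6.15) and -0.17 (-0.48 to 0.18).

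Homeostatic genes, which mark surveying microglia, were slightly lower on day 2 and none passed 2-fold. Of 33 genes, 32 reached 10 CPM, with 0 at least 2-fold higher, 0 lower and 22 below the median gene (median -0.29). This median stayed below 0 under all 10 alternative settings, between -0.51 and -0.20. Their summed level was 118224 CPM in naive and 90587, 86021 and 73817 CPM on days 1, 2 and 3. Gpr34, a lysophosphatidylserine receptor, had the lowest ratio, -0.96 (-1.01 to -0.9), with 1839.6 CPM in naive and 1006, 866 and 797 CPM on days 1, 2 and 3. Sall1, the transcription factor that maintains microglial identity, had 189 CPM in naive and 88.1, 93 and 119.8 CPM on days 1, 2 and 3, a ratio of -0.9 (-1.07 to -0.71). The nucleotide receptors P2ry13 and P2ry12, the second of which steers processes to injury, had ratios of -0.73 (-0.81 to -0.65) and -0.58 (-0.62 to -0.54). Cx3cr1, the gene that carries the transgene, had -0.36 (-0.41 to -0.31) and the secreted inhibitor Cst3, a very abundant transcript, -0.55 (-0.56 to -0.54). Olfml3 was on the other side, with 1840.2 CPM in naive and 2355 CPM on day 2, a ratio of 0.49 (0.43 to 0.54). So was Tmem119, with 2915 CPM in naive and 3253 CPM on day 2, a ratio of 0.29 (0.25 to 0.33). By role the medians were -0.38 over 16 surface genes and -0.07 over 9 transcription factors. Within day 2, cells of the classes had a median of -0.21 relative to the others over the same genes, with 0 at least 2-fold apart. The receptors of TGF-beta, the cytokine on which this state depends, had ratios of -0.59 (-0.66 to -0.52) for Tgfbr1 and -0.86 (-1.01 to -0.7) for Tgfbr2, and 0 of 11 TGF-beta pathway genes were 2-fold apart.

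Genes of the disease-associated state were not shifted together. Of 27 genes, 23 reached 10 CPM, with 1 at least 2-fold higher and 1 lower, against 5.57% and 4.4% of all genes. Their median was 0.22 and changed sign when genes were centred within bins of like level. Cst7, an inhibitor of lysosomal cathepsins, was the higher one, with 9.87 CPM in naive and 11.8, 36.4 and 35 CPM on days 1, 2 and 3 and a ratio of 1.97 (1.3 to 2.83). It entered through its day 2 level, and 22 of the 27 had 10 CPM in naive itself. Apoe was the lower one. Cd52 had 0.9 (0.8 to 1.0) and the iron store Fth1 0.8 (0.76 to 0.84). Axl had -0.41 (-0.87 to 0.12), Lpl -0.65 (-0.94 to -0.34) and the receptor Trem2 0.06 (0.01 to 0.1). Spp1 had 22.8 CPM in naive and 25 CPM on day 2, a ratio of 0.25 (-0.23 to 0.79). Microglial genes linked to pain were likewise near the median gene, with only Tnf 2-fold apart among 19 of 22 genes. Their median was -0.16, and its sign differed in cells with no core gene UMI. The purinergic receptors P2rx4 and P2ry6 had -0.18 (-0.37 to 0.03) and 0.59 (0.5 to 0.68). Among complement and phagocytosis genes 1 of 21 was at least 2-fold higher, against 5.57% of all genes. It was Fcgr4, an activating Fc receptor, with 17.3 CPM in naive and 50.6, 48.4 and 69.2 CPM on days 1, 2 and 3 and a ratio of 1.59 (1.07 to 2.21). The uptake receptor Mertk had -0.89 (-1.03 to -0.74).

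Interferon and antigen presentation genes were at or slightly below the median gene on day 2. Of 32 interferon response genes, 22 reached 10 CPM, with 1 at least 2-fold higher and 2 lower (median -0.23), against 5.57% and 4.4% of all genes. Their summed level was 1588 CPM in naive and 1041, 1500.05 and 6528 CPM on days 1, 2 and 3. Ifitm3, an antiviral membrane protein, was the higher one with 59.2 CPM in naive and 59.9, 130.1 and 561 CPM on days 1, 2 and 3, a ratio of 1.26 (0.97 to 1.58). The RNA sensor Ddx58 and Xaf1 had ratios of -1.07 (-1.43 to -0.68) and -1.0 (-1.26 to -0.74), and neither was 2-fold lower outside both classes. Isg15 and Ifit3, common markers of the response, had -0.33 (-0.71 to 0.09) and -0.97 (-1.35 to -0.56). Of 14 genes of MHC class I presentation, 0 were at least 2-fold higher and 1 lower (median -0.32). This was the nonclassical H2-T23, with 129 CPM in naive and 51, 48.5 and 96.2 CPM on days 1, 2 and 3, a ratio of -1.28 (-1.5 to -1.05). H2-D1, H2-K1 and B2m, the classical chains, had -0.64 (-0.7 to -0.57), -0.43 (-0.54 to -0.32) and -0.29 (-0.32 to -0.25). Cd74, the chaperone of class II molecules, had -0.59 (-0.82 to -0.34).

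**Figure D5:**
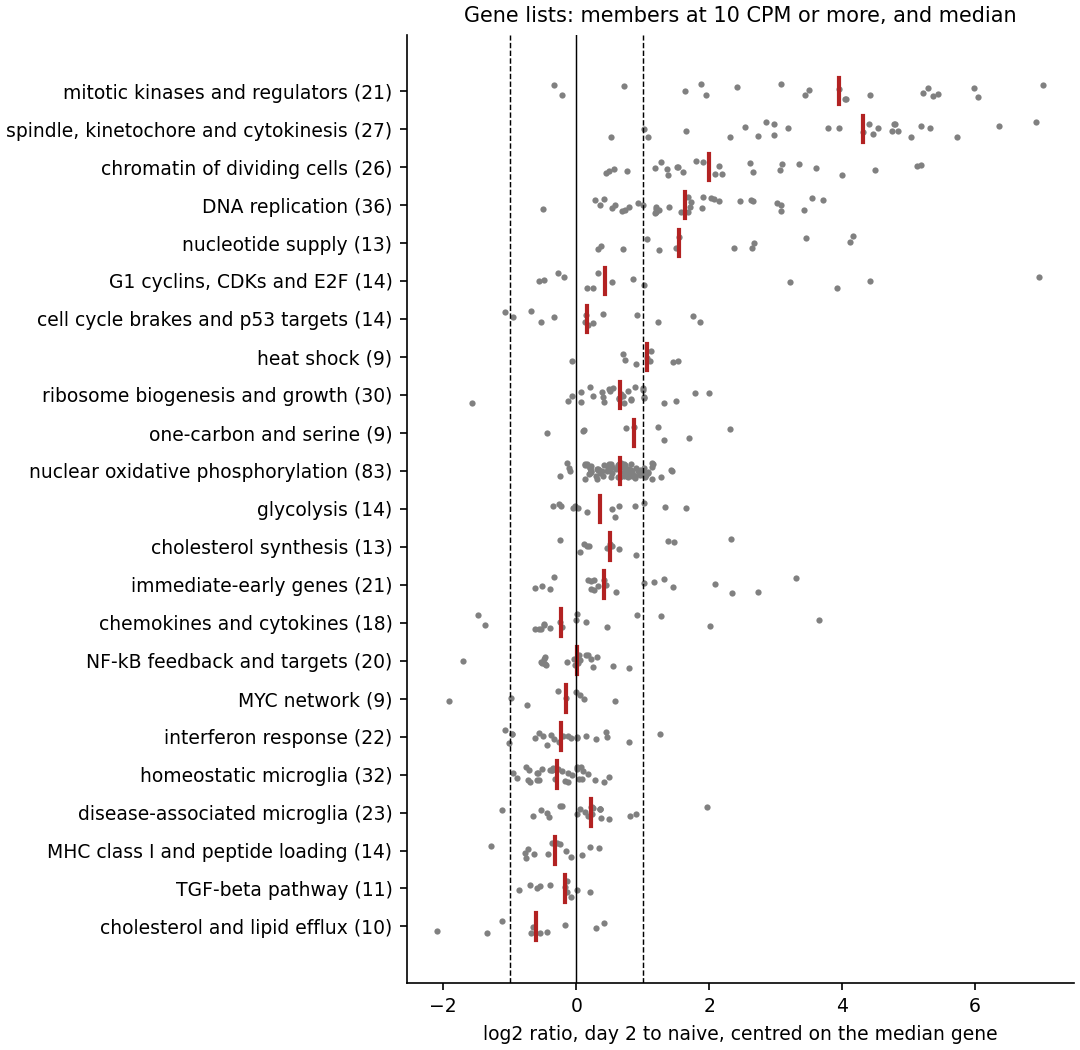
Log2 ratio of day 2 to naive (horizontal axis, centred on the median gene, 0.5 UMIs added) for the members of 23 gene lists that averaged 10 CPM or more, their number in brackets. Each grey point is 1 gene, the red bar is the median of the list and dashed lines mark 2-fold. Medians run from 4.31 for spindle, kinetochore and cytokinesis genes to -0.60 for lipid efflux genes, and the homeostatic list lies just left of 0 with no point past a dashed line.

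Beyond the lists, genes that averaged 50 CPM or more in cells outside both classes were ranked there, with the division lists left out. The highest were Fos, Klf2, Naaa, Nme1, Ccl12, Srm, Tspo, Erdr1, Pkm and Ifi30. Cd244 and Ccl2 averaged less than 50 CPM in these cells and were not ranked. Naaa, a lysosomal amidase that degrades anti-inflammatory lipid amides, had 39.5 CPM in naive and 161, 153 and 138 CPM on days 1, 2 and 3, a ratio of 2.07 (1.73 to 2.47) and 1.82 outside both classes. All 3 injured libraries were above naive. Tspo, the mitochondrial protein whose ligands are used to image activated microglia, had 152 CPM in naive and 251, 412 and 427 CPM on days 1, 2 and 3, a ratio of 1.56 (1.38 to 1.75) and 1.42 outside both classes. Ifi30, a lysosomal reductase that prepares antigens, had 143 CPM in naive and 218, 382 and 246 CPM on days 1, 2 and 3, a ratio of 1.55 (1.36 to 1.75). Erdr1, which lies in the pseudoautosomal region and whose copies cannot be placed with certainty, had a ratio of 1.49 (1.13 to 1.9).

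At the other end, the 10 lowest genes of at least 50 CPM, with mitochondrial, ribosomal, Gm and Rik genes left out, were Gal3st4, Slx1b, AY036118, Psme2b, Tmem80, Wdr89, Serinc3, Gfm2, Gng10 and Rnaset2b. Serinc3, a membrane protein found in 98.9% of naive and 90.1% of day 2 cells without thinning, had 2334 CPM in naive and 694, 646 and 1369 CPM on days 1, 2 and 3, a ratio of -1.72 (-1.78 to -1.67). Gal3st4, a sulfotransferase, had 104 CPM in naive and 23.8, 18.1 and 69.3 CPM on days 1, 2 and 3, a ratio of -2.39 (-2.67 to -2.11). Gng10, a G protein subunit, had 154 CPM in naive and 34.9, 46 and 145 CPM on days 1, 2 and 3, a ratio of -1.62 (-1.83 to -1.4). For these 3 genes days 1 and 2 were both below naive and day 3. The 4 knockout libraries lay between 1404 and 1880.5 CPM for Serinc3. Slx1b, a subunit of a DNA-cutting enzyme, had 307 CPM in naive and 56.3, 54.3 and 31.2 CPM on days 1, 2 and 3, a ratio of -2.37 (-2.53 to -2.21). Tmem80, a transmembrane protein, had 163 CPM in naive and 32.2, 42 and 34.4 CPM on days 1, 2 and 3, a ratio of -1.83 (-2.03 to -1.61). For both genes the naive library alone was high. Gfm2, which overlaps other genes on the opposite strand, had a ratio of -1.65 (-1.9 to -1.38). Psme2b and Rnaset2b are copies of Psme2 and Rnaset2a, and their ratios of -1.87 (-2.16 to -1.57) and -1.56 (-1.65 to -1.46) are uncertain. The UMIs of each gene together with its copy gave -0.18 for the first pair and -1.44 for the second. The second pair summed to 547 CPM on day 1 and 525 CPM on day 2, against 1132 to 1553 CPM in the other libraries. Wdr89 and AY036118 had ratios of -1.8 (-1.9 to -1.71) and -2.04 (-2.26 to -1.82), and their counts may depend on related sequences elsewhere in the genome. None of these 10 genes was a member of the gene lists.

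Markers of other cells were low in both libraries, and their part in the differences above was not tested. Pecam1, which endothelial cells and some leukocytes carry, had 51.2 CPM in naive and 13.4 CPM on day 2, a ratio of -1.81 (-2.18 to -1.42). Cldn5, an endothelial marker, had 0 UMIs in both libraries, and the summed level of the 5 endothelial markers was 51.2 CPM in naive and 13.7 CPM on day 2. The summed level of 7 oligodendrocyte markers was 149 CPM in naive and 139 CPM on day 2, and Mbp had -0.55 (-1.02 to -0.02). Slc1a3 had 161 CPM in naive and 102 CPM on day 2, while the defining astrocyte genes Gfap and Aqp4 had 0 UMIs in naive and 11 and 3 on day 2. Monocyte markers summed to 8.64 CPM in naive and 3.1 CPM on day 2 and border macrophage markers to 1.23 CPM in naive and 1.64 CPM on day 2. Chil3, Cd163 and Lyve1 had no UMI in either library.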

How the data were processed

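The authors deposited UMI counts per gene and cell barcode for each library, as filtered sparse matrices. According to the submitters' processing notes these came from Cell Ranger 2.1.1 with mm10 as the genome. The labels name the 10x Genomics 3' v3.1 chemistry and the methods of the study version 3, and the difference was not resolved. Gene identifiers and symbols are those of the matrices, and coordinates were taken from GENCODE M21 (GRCm38). No further normalization had been applied by the authors to these counts.

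Each library was mapped to its group by its title. UMIs of kept barcodes were summed per library, divided by the library total and expressed as CPM, which were compared as log2 ratios with 0.5 UMIs added to each sum and centred on the median gene. Genes averaging at least 10 CPM over both libraries were compared (8254 of 27998), and a 2-fold difference was called higher or lower. Intervals at 95% are exact Poisson for levels and exact conditional binomial for ratios. For shares they are exact binomial on all UMIs and Wilson after thinning, and for differences of shares they are Newcombe. Fold limits against 0 UMIs use a floor of 3 counts. Shares were averaged over 20 draws of 2000 UMIs per cell, and shallower cells were left out of them. No doublet caller was run. The sorting gate of the study excluded doublets before the libraries were made, and barcodes shared by several cells were not searched for.

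Genes were named by rule. These were the 10 highest and 10 lowest ratios at 50 CPM or more in all cells, the same in cells outside both classes without the cycle, histone and tubulin lists, 3 members per list with the largest ratios, members needed to describe a role, and Myc, Mki67, Cdk1 and Tnfaip3. Mitochondrial, ribosomal, Xist, Y-linked, Gm and Rik genes were left out of the first 2 sets. The gene lists and classes were chosen with earlier results of these data known. Alternatives covered cell filters, scaling (TMM from edgeR 4.0.16), thinning, level filters, pseudocounts and fold limits. Python 3.11.15, NumPy 2.4.6, SciPy 1.17.1, pandas 2.3.3, matplotlib 3.10.9 and R 4.3.3 were used, and the ratio calculation was tested on simulated data. Promoters were RefSeq sequences, and the entries of Stmn1 and Cd244 were not used here. Some genes are not reported here.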

Additional observations from a re-analysis of the deposited data

How the results depend on the processing

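Each value rested on 1 library a side, so that no library could be left out in turn and counting intervals were the only error available. No paired analysis was possible because each group held 1 library and no ratio came from a test. The count of genes at least 2-fold higher (460) was 232 in cells outside both classes, 1227 at a limit of 1.5-fold, 158 among genes of at least 50 CPM and 1219 with no level filter beyond 1 UMI. The count at least 2-fold lower (363) was 1154 at 1.5-fold, 79 at 50 CPM or more and 3204 with no level filter. Higher and lower counts stayed within 1.5 times of these under stricter cell filters (454 and 374), with all barcodes (467 and 371), with means over cells (392 and 348), with day 2 thinned to the naive total (476 and 439) and with a pseudocount of 5 UMIs (417 and 372). They did so too with no centring (348 and 538) and TMM (541 and 277). Chosen after seeing the data, centring within bins of like level gave 467 and 297, and cells with no core gene UMI gave 311 and 500. The difference in G2/M share (13.9 points) was 30.9 without thinning, 6.17 after thinning to 1000 UMIs, 28.8 with at least 2 core genes and 5.42 with at least 5. The difference in S share (6.14 points) was 10.2, 2.05, 10.6 and 1.04 under the same settings. Of 330 values of the named genes under 10 alternatives, 277 moved by less than the counting error of the gene and 53 by more. Of 440 medians of the gene lists, 405 moved by less than 2 standard errors of the list mean and 35 by more. In 10 of 44 lists the sign differed in some alternative, among them NF-kB genes (-0.13 with no centring), complement genes (-0.07 within bins) and SLAM genes (-0.1 with no centring). Neither share difference changed sign, and apart from fewer UMIs, genes or cells in use the cause of these moves was not tested.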

Other observations

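Of the 13 protein genes of the mitochondrial genome, 11 were above the median gene, with 3 at least 2-fold higher and 1 lower (median 0.72), or 2 and 1 outside both classes. mt-Nd1, a subunit of respiratory complex I, had 1037 CPM in naive and 1669.95, 2319 and 1828 CPM on days 1, 2 and 3, a ratio of 1.29 (1.22 to 1.36). mt-Co1, of complex IV, had 0.77 (0.71 to 0.83), and mt-Atp8, whose coding sequence overlaps that of mt-Atp6, was the lower one at -1.45 (-1.59 to -1.3). Actin and motility genes were above the median gene in 17 of 19, with 1 at least 2-fold higher and 0 lower (median 0.42). Actb had 2831 CPM in naive and 3642, 4026 and 2512 CPM on days 1, 2 and 3, a ratio of 0.64 (0.6 to 0.68), while the LIM protein Crip1 was the higher one at 1.17 (0.49 to 2.03). Of 12 iron and redox genes, 2 were at least 2-fold higher and 1 lower (median 0.24), and none of the 12 outside both classes. The thiol enzymes Txn1 and Prdx1 had ratios of 1.13 (0.86 to 1.43) and 1.05 (0.92 to 1.2). Slc40a1, the iron exporter ferroportin, had 137 CPM in naive and 53.3, 62.3 and 71.6 CPM on days 1, 2 and 3, a ratio of -1.01 (-1.22 to -0.79), and Ftl1, a ferritin chain, had 0.73 (0.68 to 0.78). Survival and death genes of the BCL2 family were not 2-fold apart in any of 18, with a median of -0.13 that was above 0 in cells with no core gene UMI.

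Glucocorticoid-responsive genes were near the median gene. Of 10 genes, 1 was at least 2-fold higher and 0 lower, against 5.57% and 4.4% of all genes. Their median was -0.01, or 0.06 with TMM. The 1 higher gene passed the filter of 10 CPM through its day 2 level. Ddit4, the higher one, had 9.87 CPM in naive and 8.04, 23.2 and 191 CPM on days 1, 2 and 3, a ratio of 1.32 (0.64 to 2.18), and the 4 knockout libraries lay between 66.9 and 256 CPM. Fkbp5, a chaperone partner of the receptor, had 48.8 CPM in naive and 36.5, 46.8 and 301 CPM on days 1, 2 and 3, a ratio of 0.06 (-0.27 to 0.42), and 183 to 305 CPM in the knockout libraries. Cybb, the catalytic subunit of the phagocyte NADPH oxidase, had 4.94 CPM in naive and 4.41, 4.74 and 25.9 CPM on days 1, 2 and 3, a ratio of -0.01 (-0.98 to 1.34), and 135 to 273 CPM in the knockout libraries. Its partner Cyba had 1511 CPM in naive and 1623, 1936 and 1277 CPM on days 1, 2 and 3, a ratio of 0.49 (0.43 to 0.55). H2-Aa, an MHC class II chain, had 9.26 CPM in naive and 0.711, 2.91 and 7.82 CPM on days 1, 2 and 3, a ratio of -1.57 (-2.41 to -0.59), from 15 naive and 46 day 2 UMIs, and none of the 4 class II genes at 10 CPM was called (median -0.17).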
